A study of Mus musculus with 6 samples.

Results

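Cytosolic ribosomal protein genes were followed in cells sorted from mouse epidermis. The gene table was searched for names made of Rpl or Rps and a digit, and for Rpsa, Rplp0, Rplp1, Rplp2 and Fau. Pseudogene names ending in -ps and the Rps6k kinases were left out. This gave 94 of 54532 rows, of which 38 were assigned by name to the small subunit and 55 to the large subunit. The remaining gene, Rps19bp1, carries a matching name but encodes a binding partner of Rps19. Some of the rows assigned to a subunit are annotated as processed pseudogenes. These are Rpl32l, Rpl6l, Rps12l1, Rps3a2 and Rps3a3, and, as transcribed ones, Rps4l and Rpl37rt. The list includes 13 paralogs and retro copies, and 78 genes are left when these, Rps19bp1 and the annotated copies Rps3a2 and Rps3a3 are set aside. Of the 94, 85 had enough counts to be tested.

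The study compared Merkel cells, the touch-sensing cells of the epidermis, with unselected epidermal cells by Smart-seq2, which copies full-length cDNA from little RNA. All libraries came from the dissociated epidermis of dorsal skin of male and female C57BL/6 mice aged 4 weeks, with 500 sorted events in each. The 3 NCAM-enriched libraries came from DAPI-negative cells selected with beads and by flow cytometry for PSA-NCAM, a form of the neural cell adhesion molecule on the Merkel cell surface. The 3 bulk skin libraries came from DAPI-negative cells with no such selection. No source says that the libraries of a group came from separate animals, so p-values measure only the spread between these libraries.

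Ribosomal proteins assemble with ribosomal RNA in the nucleolus into a small subunit, which reads the mRNA, and a large subunit, which joins amino acids. Their short and abundant mRNAs commonly begin with a run of pyrimidines, the 5′ terminal oligopyrimidine or TOP motif, through which mTOR and Larp1 control translation. Mammalian genomes hold many processed pseudogenes of these genes, so short reads from them are often hard to place.

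The start sites show this feature for some of the genes that stood lowest in the NCAM-enriched libraries. Each sequence below runs from 25 bases before to 25 bases after the first transcribed base in RefSeq (GRCm38.p6), 5′ to 3′ on the gene's own strand, so it holds proximal promoter and the first bases of exon 1. Capitals mark the unbroken pyrimidine run where the start has C followed by at least 4 bases that are C or T. Rpl38 lies at chr11:114668555-114668604 on the plus strand, Rpl35 at chr2:39005107-39005156 on the minus strand, Rpl37a at chr1:72711235-72711284 on the plus strand and Rps25 at chr9:44407689-44407738 on the plus strand.
Rpl38: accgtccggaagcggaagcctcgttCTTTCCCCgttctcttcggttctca
Rpl35: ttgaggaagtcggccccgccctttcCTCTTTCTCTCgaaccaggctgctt
Rpl37a: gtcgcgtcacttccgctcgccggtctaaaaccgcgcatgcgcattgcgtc
Rps25: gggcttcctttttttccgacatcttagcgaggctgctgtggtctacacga
The run was 8 bases long in Rpl38 and 11 in Rpl35, while Rpl37a and Rps25 lacked it at the annotated position. A start listed in RefSeq was at hand for 69 of the 94 genes, and 16 of these (23.2%) had such a start, against 3.01% of 27025 genes in the same table. The median log2 fold change was -0.82 for the 14 tested genes with the start and -0.77 for the 50 tested genes without it, so the annotated start did not separate the genes by their difference between groups. A match is to letters at the annotated first base only.

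As a group, ribosomal protein genes took a smaller share of the counts in every NCAM-enriched library than in any bulk skin library. They made up 1.705% (95% exact binomial interval 1.687 to 1.723), 1.293% (1.274 to 1.313) and 1.767% (1.754 to 1.78) of the counts in NCAM-enriched replicates 1 to 3. In bulk skin replicates 1 to 3 they made up 2.889% (2.871 to 2.907), 1.898% (1.886 to 1.911) and 2.358% (2.342 to 2.374). The intervals cover counting error only, since reads are PCR copies without molecular identifiers. The means were 1.59 ± 0.257% (SD, n = 3) and 2.38 ± 0.496% (SD, n = 3), a difference of -0.794 percentage points and a ratio of 0.667. The groups did not overlap, but the nearest libraries, NCAM-enriched replicate 3 and bulk skin replicate 2, stood close together, and the bulk skin libraries spread more widely than the gap between groups. Mitochondrially encoded genes took 0.896%, 1.973% and 0.3135% of the counts in NCAM-enriched replicates 1 to 3 and 0.1395 to 0.2628% in bulk skin. The highest value was in NCAM-enriched replicate 2, where the ribosomal protein share was lowest. Within bulk skin, replicate 2 had the lowest share of both sets, 1.898% and 0.1395%. With mitochondrially encoded genes left out of the total, the difference in ribosomal protein share was -0.783 percentage points. No p is given for this sum, because the genes were chosen with results of these data known. In bulk libraries such as these, fewer cells of a type and less RNA per cell cannot be told apart.

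**Figure D1:**
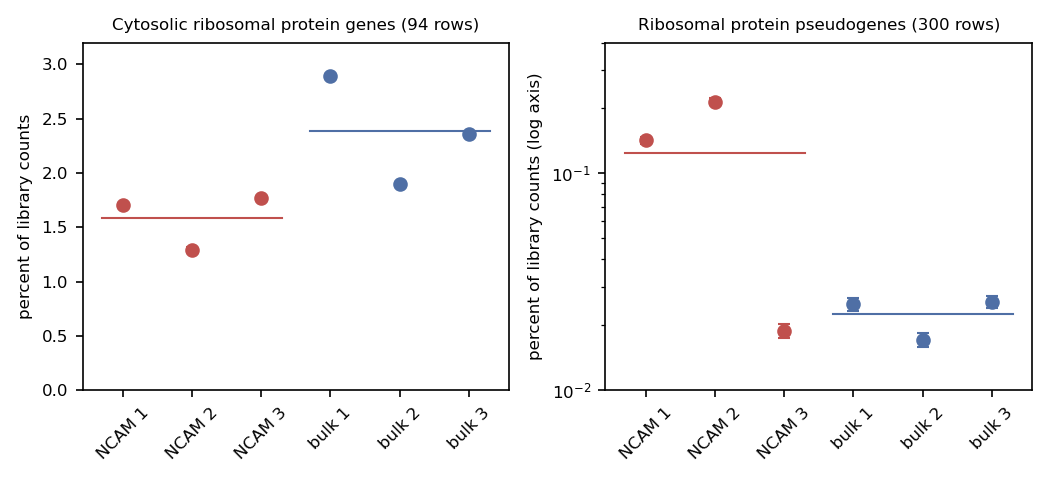
Share of each library's counts (percent) in the 94 ribosomal protein genes (left, linear axis) and in 300 ribosomal protein pseudogene rows (right, log axis), for the NCAM-enriched (NCAM) and bulk skin (bulk) replicates. Points are libraries, bars 95% exact binomial intervals and lines group means. Every NCAM-enriched library lies below every bulk skin library on the left, and NCAM-enriched replicates 1 and 2 stand far above the other 4 libraries on the right.

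Both subunits were lower. Small subunit genes averaged 0.776 ± 0.154% of the counts in the NCAM-enriched libraries and 1.21 ± 0.28% in bulk skin (SD, n = 3 each). Large subunit genes averaged 0.809 ± 0.101% and 1.16 ± 0.215%. The ratio of small to large subunit counts was 1.0, 0.864 and 0.994 in the NCAM-enriched libraries and 1.07, 0.967 and 1.07 in bulk skin, so the balance of subunits overlapped between groups. The 6 genes with the most counts held 45.6 to 53.6% of all ribosomal protein counts in the NCAM-enriched libraries and 34.9 to 43.9% in bulk skin. The leading gene was Rpl8 in NCAM-enriched replicates 1 and 2 and Rpl4 in replicate 3.

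Gene by gene, none of the 85 tested genes passed the edgeR quasi-likelihood test at an adjusted p of 0.05 in either direction, where 2.59% of all 13157 tested genes did (1.55% lower and 1.04% higher in the NCAM-enriched group). An unadjusted p under 0.05 was reached by 13 of 85, where 18.9% of all tested genes reached it. The direction was shared: 78 of 85 log2 fold changes were below 0, against 52.3% of all tested genes, and the median was -0.76 against -0.07. In 24 genes all 3 NCAM-enriched libraries lay below all 3 bulk skin libraries, a pattern held by 19.3% of all tested genes, and in 0 genes did all 3 lie above, against 11.1%. Most genes thus stood somewhat lower, and no single gene differed beyond the spread between libraries by this test.

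**Figure D2:**
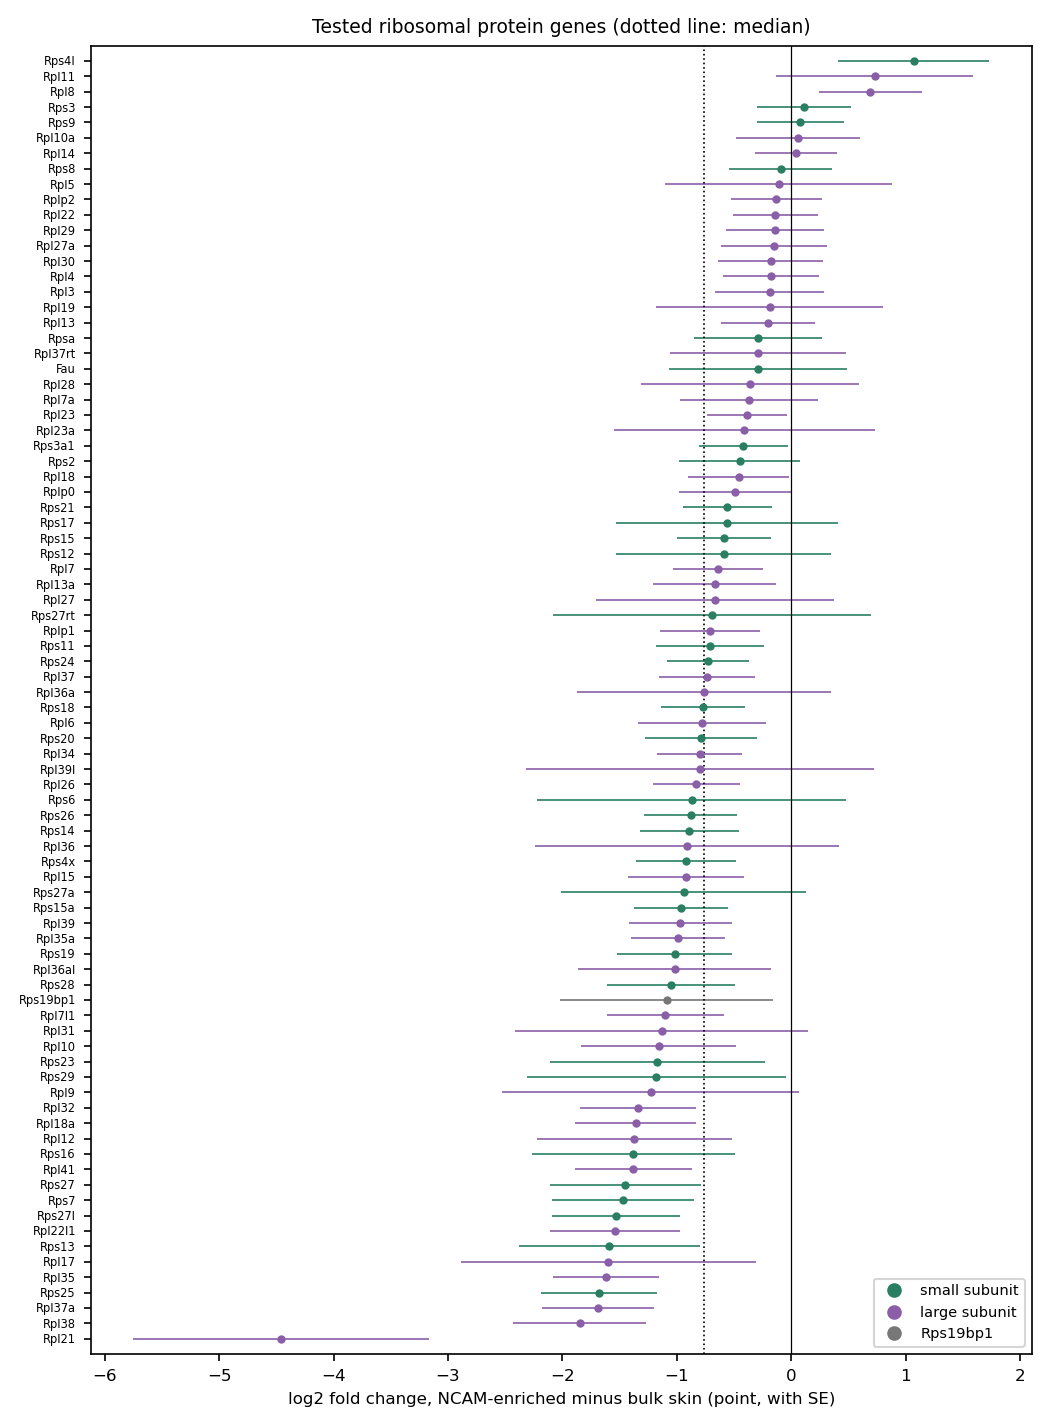
Fitted log2 fold change (NCAM-enriched minus bulk skin, x axis) of the tested genes reported here, ordered by size, with its SE. Green marks small subunit genes, purple large subunit genes and grey Rps19bp1, and the dotted line is the median of all 85 tested genes, -0.76. All but 7 points lie below 0, from -4.46 for Rpl21 to 1.07 for Rps4l.

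The other tests called a few genes. DESeq2 called 5 lower (Rps25, Rpl21, Rpl37a, Rpl38 and Rpl35), where it called 6.65% of all genes lower, and 2 higher (Rps3a3 and Rpl32l), where it called 7.64% higher. limma-voom called Rpl21 lower, against 6.45% of all genes. edgeR on all genes with at least 1 count called 5 lower (Rps27l, Rpl37a, Rpl38, Rps7 and Rpl41; 2.66% of all genes) and 2 higher (Rps3a3 and Rpl10l; 2.76%), of which Rpl10l had counts in NCAM-enriched replicates 1 and 2 alone. Rps7 and Rpl41, and Rps3a3 below, fall outside the naming rule and are named because these counts are small. Set against 93 ribosomal protein genes fitted in DESeq2 and in the fit of all genes, these counts are few, and nothing about the list is read from them. The DESeq2 shares are over the 16459 genes given an adjusted p, while the 93 are all list genes with a fitted value.

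The difference also varied with the library. Taken against the bulk skin mean, the median of the tested genes on the log2 scale was -0.66, -1.17 and -0.33 in NCAM-enriched replicates 1 to 3 and 0.34, -0.31 and 0.01 in bulk skin replicates 1 to 3. Over all tested genes the same medians were -0.13, -0.51 and -0.10, and 0.01, 0.02 and 0.03, so part of the low value of replicate 2 was shared by all genes. NCAM-enriched replicate 3, with 3798136 counts the deepest of its group, stood level with bulk skin replicate 2. Replicate 2, with 1343190 counts the shallowest of all, stood lowest. Without replicate 2 the median over the genes was -0.47, with all tested genes at -0.12. With replicate 3 as the sole NCAM-enriched library it was -0.39, with all tested genes at -0.29, and 3 genes were called lower (Rpl39l, Rpl22l1 and Rpl21; 10.4% of all genes), the lone library being assumed to vary like the bulk skin libraries.

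Transcript length moved weakly with the difference among the ribosomal protein genes (Spearman's rho 0.227, Pearson's r 0.14, n = 85 genes from the same libraries). The shortest 28 tested ribosomal protein genes, with transcripts of 345 to 577 bases, were all below 0, with a median log2 difference of -0.81. The middle 29 had nearly the same median, -0.80, with 24 below 0. The longest 28, of 899 to 5130 bases, had a median of -0.57, and 26 of them were below 0. Among all tested genes the 4384 with the shortest exonic length had a median of -0.34 and the 4384 with the longest 0.16. With the trend in exonic length removed across all genes, the median of the ribosomal protein genes was -0.07 against 0.29 over all tested genes, and 45 of 85 were below 0. In that fit 56 of 85 lay below the median of all tested genes, against 78 of 85 in the main fit. The part of length in the lower share was otherwise not tested.

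The cells sorted also differed in kind, which was read from marker lists. Merkel cell markers summed to 1569, 1674 and 482 CPM (read counts put on 1 scale by library size and TMM factors) in the NCAM-enriched libraries and 133 to 186 in bulk skin, with 5 of 10 called higher and none at 0. Suprabasal keratinocyte markers summed to 14072 to 36392 against 1470 to 1653 CPM, with 7 of 9 called higher. T cell markers (3.09 to 57.6 against 3357 to 3638 CPM, 6 of 7 lower, Cd3d at 0 in all NCAM-enriched libraries) and Langerhans and myeloid markers (26.3 to 353 against 10502 to 18411 CPM, 7 of 7 lower, Itgax at 0) were low in the NCAM-enriched group. Proliferation markers summed to 175 to 503 against 583 to 813 CPM, with 0 of 7 called. Fibroblast markers reached 32958 CPM in NCAM-enriched replicate 2 but 363 and 41.7 in replicates 1 and 3, against 10011 to 17958 in bulk skin. Basal keratinocyte markers summed to 9898, 7580 and 31095 against 12341 to 16552 CPM, with 0 of 7 called. Red blood cell markers (3.09 to 23.9 against 747 to 1176 CPM) had all 4 tested genes called lower. Melanocyte markers overlapped, at 5.39 to 64.9 against 19.6 to 83.9 CPM. Skeletal muscle markers summed to 266, 160 and 7.66 against 0 to 1.1 CPM, with the 1 tested gene called higher. The part of these cells in the ribosomal protein result was not tested.

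The genes with the smallest p were all lower in the NCAM-enriched libraries. Rpl38, a large subunit protein whose loss in mice alters the axial skeleton, stood at 40.4, 13.1 and 50.5 CPM in NCAM-enriched replicates 1 to 3 and at 143, 74.4 and 161 CPM in bulk skin. Its groups did not overlap, with a log2 fold change of -1.85 ± 0.58 (SE) and an adjusted p of 0.12 (edgeR). Rpl37a, which sits in the large subunit, stood at 82.4, 38.6 and 99.6 against 270, 136 and 306 CPM. Its highest NCAM-enriched value lay below its lowest bulk skin value, with a log2 fold change of -1.69 ± 0.49 and an adjusted p of 0.0949 (edgeR). Rps25, a small subunit protein known for its role in translation from viral internal ribosome entry sites, stood at 32.9, 15.5 and 34.6 against 115, 64.9 and 86.6 CPM. Its groups did not overlap either, with a log2 fold change of -1.68 ± 0.51 and an adjusted p of 0.113 (edgeR).

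Rpl35, which lines the end of the peptide exit tunnel, stood at 45.2, 31.7 and 54.5 CPM against 205, 103 and 98.7 CPM. The groups were apart, with a log2 fold change of -1.62 ± 0.46 and the smallest adjusted p of the list, 0.0923 (edgeR). Only 4.9% of its 50-base windows were found in no other annotated gene, so its level is uncertain. How its reads were placed was not examined. Rps27l, a paralog of Rps27 that p53 induces, stood at 159, 61.0 and 248 CPM against 526, 242 and 589 CPM. Here NCAM-enriched replicate 3 just passed the lowest bulk skin library, and the log2 fold change was -1.53 ± 0.56 with an adjusted p of 0.182 (edgeR).

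Rpl21, a large subunit protein, had the largest difference and few counts. It had 2, 0 and 3 counts in the NCAM-enriched libraries and 60, 43 and 73 in bulk skin, for a log2 fold change of -4.46 ± 1.29 and an adjusted p of 0.0949 (edgeR). Its levels were at most 1.06 CPM against at least 9.3 CPM. The Rpl21 transcript shares 50-base windows with 82 other annotated genes. The pseudogene row Rpl21-ps5 had 43, 62 and 3 counts in the NCAM-enriched libraries and 0, 1 and 2 in bulk skin, so in NCAM-enriched replicates 1 and 2 more counts lay on this copy than on Rpl21 itself.

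At the upper end, 4 genes stood highest. Rps4l, a copy related to Rps4x, had a log2 fold change of 1.07 ± 0.66 (adjusted p = 0.438, edgeR), with 31.4, 145 and 80.9 CPM against 46.9, 57.1 and 18.1 CPM. Rpl11, which with Rpl5 and the 5S RNA binds Mdm2, stood at 6.38, 37.9 and 29.5 against 14.6, 13 and 16.7 CPM, a log2 fold change of 0.73 ± 0.86 (adjusted p = 0.715, edgeR). Both genes had groups that overlapped. Rpl8, next to the peptidyl transferase centre, stood at 1953, 2262 and 1262 CPM against 1509, 1165 and 732 CPM, a log2 fold change of 0.69 ± 0.45 (adjusted p = 0.473, edgeR). Rps3, at the mRNA entry channel and also known as a DNA repair enzyme, stood at 1623, 1260 and 1520 against 1809, 1234 and 1029 CPM, with a log2 fold change of 0.11 ± 0.41 (adjusted p = 0.921, edgeR). None of these 4 was beyond the spread between libraries.

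Rpl4 and Rpl8 were among the most abundant genes over all libraries. Rpl4, whose extension reaches into the exit tunnel, stood at 1187, 1141 and 1724 against 2004, 1504 and 1097 CPM, a log2 fold change of -0.18 ± 0.42. The groups overlapped in both genes, and the log2 fold change of Rpl8 had the opposite sign.

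**Figure D3:**
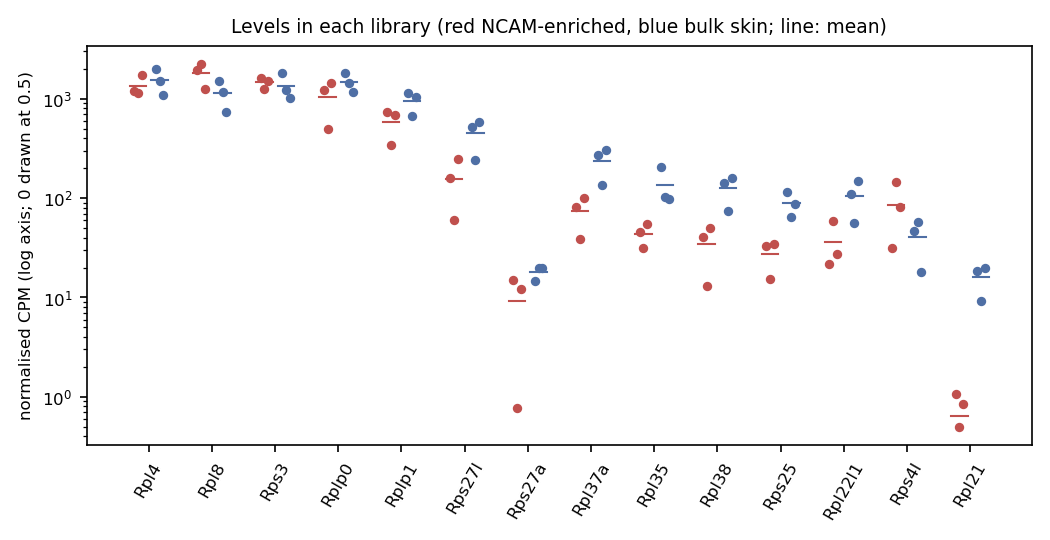
Level of named genes in each library, in normalised CPM on a log axis, NCAM-enriched in red and bulk skin in blue, with the group mean as a line and values of 0 drawn at 0.5. The groups are apart for Rpl37a, Rpl35, Rpl38, Rps25 and Rpl21 and overlap for Rpl4, Rpl8, Rps3, Rplp0, Rplp1, Rps27l, Rps27a, Rpl22l1 and Rps4l.

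Genes of the list were also grouped by role. As 0 of the 85 tested genes were called, no group could hold a call. Of the 85, 78 were below 0, so a group mostly below 0 repeats the list. The P-stalk, which recruits translation factors, is built of Rplp0, Rplp1 and Rplp2. Rplp0 stood at 1231, 496 and 1430 CPM against 1838, 1439 and 1161 CPM, with a log2 fold change of -0.49 ± 0.49. Rplp1 (-0.71 ± 0.44) and Rplp2 (-0.13 ± 0.40) were also below 0 with overlapping groups. The fusion genes Rps27a, made as a ubiquitin fusion, and Fau, made as a ubiquitin-like fusion, had log2 fold changes of -0.94 ± 1.07 and -0.29 ± 0.78, with 1 to 98 counts per library in both. Among genes of the peptidyl transferase centre and exit tunnel (Rpl3, Rpl4, Rpl10, Rpl17, Rpl39, Rpl23a and Rpl35) all 7 were below 0, with a median of -0.97, but Rpl8, which lies close by and was not on that list, was above 0. Of 7 tested genes at the mRNA entry, exit and decoding face, 6 were below 0, with a median of -0.59. The 5S particle partners Rpl5 and Rpl11 split, with log2 fold changes of -0.11 and 0.73. Rps6, the small subunit target of S6 kinase, had 10, 0 and 17 counts against 25, 41 and 9 (log2 fold change -0.87 ± 1.35).

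Among the paralogs and retro copies, a few that did not pass the count filter were high in some NCAM-enriched libraries. The 8 tested ones had a median log2 fold change of -0.91, with 7 below 0. For such copies, differences in sequence, in the coding part and outside it, bear on whether a read can be placed. The first 50 coding bases of 2 families are therefore shown from GENCODE M21 transcripts. Capitals mark bases that differ from the parent gene, printed first.
Rpl10: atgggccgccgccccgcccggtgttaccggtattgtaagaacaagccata
Rpl10l: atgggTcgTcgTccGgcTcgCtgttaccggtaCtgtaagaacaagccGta
Rps27: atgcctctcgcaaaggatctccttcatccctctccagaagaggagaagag
Rps27rt: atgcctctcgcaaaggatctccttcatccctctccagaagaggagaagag
Rps27l: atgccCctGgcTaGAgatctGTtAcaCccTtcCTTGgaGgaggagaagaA
Rpl10l differed from Rpl10 at 8 of these 50 bases and at 98 of 645 coding bases, and 92.4% of its windows were found in no other annotated gene. Rps27l differed from Rps27 at 16 of 50 and 61 of 255 bases. Rps27rt was identical to Rps27 over all 255 coding bases, so their counts are uncertain. Rps27, on chromosome 3, had 1.4% of its windows to itself, and Rps27rt, on chromosome 9, had 8.9%.

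Rpl10l, a single-exon copy on chromosome 12 (GRCm38, 66283379 to 66284401, minus strand) known for its role in the testis, where it stands in for X-linked Rpl10, had 103, 170 and 0 counts in the NCAM-enriched libraries and 0 in all 3 bulk skin libraries. Against a floor of 3 counts over the bulk skin group, the pooled level was at least 156-fold higher. The counts came from replicates 1 and 2 alone, and the gene did not pass the count filter. In these 2 libraries all processed pseudogene rows took 2.05% and 3.06% of the counts, against 0.135 to 0.195% in bulk skin. The high level is thus not particular to Rpl10l, and its cause was not tested. Rpl10 itself, on the X chromosome, had 20, 19 and 75 counts against 111, 130 and 154.

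Other copies were also high in some NCAM-enriched libraries. Rps3a3, annotated as a copy of Rps3a1, had 76, 111 and 2 counts against 3, 5 and 1, a pooled ratio of 36.0. Rpl32l, a single-exon copy of Rpl32, had 2, 80 and 24 counts against 6, 3 and 6, a pooled ratio of 12.1, so here replicate 2 led. Neither passed the count filter. The 7 single-exon genes of the list (Rpl10l, Rpl32l, Rpl6l, Rps12l1, Rps27rt, Rps3a2 and Rps3a3) summed to 112, 280 and 11.9 CPM in the NCAM-enriched libraries and to 17.4, 6.49 and 17.5 CPM in bulk skin, high in replicates 1 and 2 and within the bulk skin range in replicate 3.

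The tested paralogs were not called. Rpl22l1, the paralog of Rpl22, stood at 21.8, 59.5 and 27.2 CPM against 110, 55.8 and 148 CPM, a log2 fold change of -1.54 ± 0.57 (adjusted p = 0.184, edgeR), and overlapped through NCAM-enriched replicate 2. Rpl7l1 (-1.10 ± 0.51), Rpl36al (-1.02 ± 0.84), Rpl39l (-0.80 ± 1.52), Rps27rt (-0.69 ± 1.39) and Rpl37rt (-0.29 ± 0.77) were below 0 with overlapping groups. Rpl39l, a paralog of Rpl39 known from the testis, had 15, 18 and 0 counts against 33, 17 and 86. Over the 8 tested paralogs and retro copies 7 were below 0, with a median of -0.91.

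How much of a gene's sequence is its own moved with how high it was counted. Every 50-base window of 1 transcript per gene was searched in all GENCODE M21 transcripts on both strands. Among the 78 genes without paralogs and copies, the 30 with at least 50% of windows to themselves had a median of 281 CPM per kb of transcript in the NCAM-enriched libraries and 433 in bulk skin. The 18 with under 20% had medians of 19.1 and 37.8 CPM per kb. The first class held 80.6% and 77.7% of the counts of these genes. Spearman's rho between level per kb and the unique share was 0.539 for the NCAM-enriched and 0.531 for the bulk skin means (n = 78 genes from the same libraries), as a description. Rpl8 was unique in 92.1% of its windows and stood at 2145 and 1334 CPM per kb, whereas Rps6 was unique in 15.4% and stood at 3.85 and 7.25 CPM per kb. Rpl24, unique in 18.3%, had 12 counts over all 6 libraries and was not tested.

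**Figure D4:**
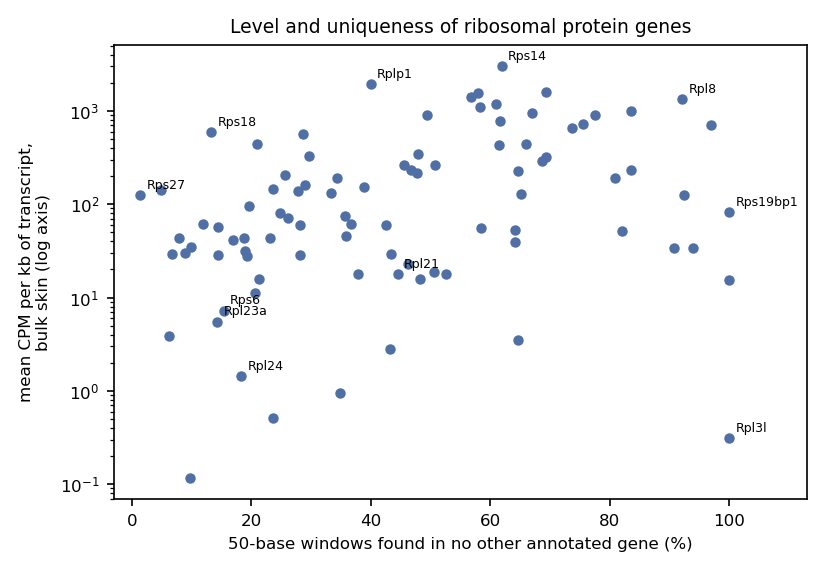
Mean level in bulk skin (CPM per kb of transcript, log axis) against the percent of 50-base windows that occur in no other annotated gene, 1 point for each ribosomal protein gene reported here that had a count in bulk skin. Rpl8, at 92.1%, stands at 1334 CPM per kb, and Rpl24 and Rps6, at 18.3% and 15.4%, at 1.45 and 7.25.

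The difference between groups did not follow this measure. Spearman's rho of the log2 fold change with the unique share was 0.027 over the 85 tested genes. Genes with at least 50% unique windows had a median log2 fold change of -0.74 (35 tested, 30 below 0), and genes under 50% had -0.76 (50 tested, 48 below 0). The share of library counts was lower by a similar ratio, 0.696, when counted over the 38 genes with at least 50% unique windows (1.09 to 1.41% against 1.49 to 2.27%). Levels of single genes with few unique windows are therefore uncertain, while the direction over the list was the same in both classes.

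Other genes of translation were read from lists by role. Over all 13157 tested genes edgeR called 1.04% higher and 1.55% lower. Nothing about these lists is therefore read from 0 or 1 call. Of 18 translation factors and other TOP mRNAs, 0 were called and 12 were below 0, with a median of -0.32. Eef2, the translocation factor of elongation, stood at 1807, 1846 and 2283 CPM against 1102, 1502 and 732 CPM (log2 fold change 0.83 ± 0.43, adjusted p = 0.343, edgeR). Npm1, a nucleolar chaperone, stood at 150, 49.4 and 152 against 282, 213 and 232 CPM (-1.05 ± 0.47, adjusted p = 0.269, edgeR), with groups apart. Of 27 initiation, elongation and release factors, 1 was called higher and 0 lower, with a median of 0.23. It was Eif4g1, the scaffold of the cap-binding complex, at 536, 760 and 434 CPM against 148, 182 and 167 CPM (1.80 ± 0.37, adjusted p = 0.0413, edgeR). The call was lost without NCAM-enriched replicate 1 or any 1 bulk skin library (adjusted p = 0.0739 to 0.27, edgeR) and under the replicate block (0.0974). Eif3m, a subunit of eIF3, stood at 79.2, 72.6 and 69.5 against 239, 166 and 145 CPM (-1.31 ± 0.36, adjusted p = 0.085, edgeR).

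Ribosome biogenesis factors had a median of 0.26, with 0 of 38 called and 26 above 0. Rrp1, which processes large subunit RNA, stood at 261, 274 and 230 CPM against 102, 145 and 78.4 CPM (1.23 ± 0.37, adjusted p = 0.103, edgeR). Nop10, of the pseudouridylation particles, stood at 162, 48.7 and 112 against 412, 201 and 501 CPM (-1.78 ± 0.53, adjusted p = 0.104, edgeR). In the list of mTOR arm genes and translation regulators 0 of 14 were called. The median was 0.58, with 8 above 0 and 6 below. Larp1, which binds TOP mRNAs, stood at 140, 179 and 132 CPM against 50.9, 93.0 and 79.5 CPM (1.01 ± 0.39, adjusted p = 0.2, edgeR), and Mycn, a transcription factor of growth genes, at 0, 0 and 1.14 against 10.6, 4.54 and 14.5 CPM (-4.29 ± 1.51, adjusted p = 0.163, edgeR).

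Mitochondrial ribosomal protein genes, which serve the separate ribosome of mitochondria, had nearly the same median as the cytosolic ones. It was -0.77 over 77 tested genes of 78, with 65 below 0. Of these 77, 0 were called, where 2.59% of all tested genes were. Their share of library counts was 0.347 ± 0.0748% in the NCAM-enriched libraries and 0.651 ± 0.123% in bulk skin (SD, n = 3 each), a ratio of 0.533. Mrpl36 stood at 74.9, 50.2 and 84.3 CPM against 269, 176 and 231 CPM (-1.69 ± 0.38, adjusted p = 0.055, edgeR). Mrpl33 stood at 30.3, 19.3 and 42.6 against 148, 82.1 and 143 CPM (-2.01 ± 0.48, adjusted p = 0.0642, edgeR). Both large subunit genes had groups that did not overlap.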

How the data were processed

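The authors deposited whole read counts for each gene, with no normalization applied to them. In the paper, differential expression was calculated with DESeq2, which is an alternative here. By their methods, adapters and polyA were clipped, abundant sequences were removed, reads were aligned to GRCm38 with STAR and counted with featureCounts. The annotation release, the strand setting and the treatment of reads with several matches were not given in the sources used here, and a loss of such reads would lower genes with many copies. The 6 libraries held 1343190 to 4481830 counts, so 1 count was 0.216 to 0.773 CPM. All values were whole, and no library copied another.

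Groups followed the labels. Counts were fitted in R 4.3.3 with edgeR 4.0.16 (filterByExpr, TMM factors, quasi-likelihood F-test) with Benjamini-Hochberg adjustment over 13157 genes, after the test was checked on simulated data. SE was derived from the fit as |log2 fold change|/√F. Gene positions and lengths came from GENCODE M21, which held 54495 of the gene IDs. DESeq2 1.42.0, limma-voom (limma 3.58.1), other factors, filters, a replicate block and leaving out each library were alternatives. Figures were drawn with matplotlib 3.10.9.

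Genes named were the 6 with the smallest p, the 4 largest and 4 smallest log2 fold changes above 20 CPM in the higher group, the 3 most abundant, the P-stalk and fusion genes, paralogs with at least 10 counts, and 2 of each pathway list by p. Genes named for a role, a leading count or a parent, and all pseudogenes, were added after their values were seen. Values of 1 gene are not reported here. The members and lists were chosen with earlier results of these data known.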

Additional observations from a re-analysis of the deposited data

Results flagged for a closer look

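Rows named as ribosomal protein pseudogenes, which are outside the 94 genes compared, took 0.142% of the counts in NCAM-enriched replicate 1 and 0.213% in replicate 2. This stood above the 0.0171 to 0.0255% of the bulk skin libraries, while NCAM-enriched replicate 3 had 0.0187%. All 9508 processed pseudogene rows took 2.05%, 3.06% and 0.167% in NCAM-enriched replicates 1 to 3 and 0.135 to 0.195% in bulk skin. Of the 300 ribosomal protein pseudogene rows, 65, 67 and 16 had at least 10 counts in the NCAM-enriched libraries, against 18 to 24 in bulk skin. In 24, 52 and 3 of them the count was above that of the parent gene, against 0 to 3 in bulk skin. Rpl27a-ps1 had 114, 81 and 0 counts against 0, 0 and 1, Rpl19-ps9 had 58, 79 and 0 against 0 in all 3, and Rpsa-ps10 had 104, 115 and 4 against 2, 2 and 1. The cause was not tested.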

How the results depend on the processing

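The lower share of counts kept its direction under each alternative, at -0.540 to -1.04 percentage points when 1 library was left out. The counts of genes called depended on the test. Genes called higher numbered 2 in DESeq2 and 2 in edgeR with every gene of at least 1 count, with 0 to 2 when 1 library was left out (2 of 88 without NCAM-enriched replicate 3, where 1099 of all 14962 genes were). Genes called lower numbered 5 in DESeq2, 1 in limma-voom, 5 in edgeR with every gene of at least 1 count, with 0 to 1 when 1 library was left out (1 of 86 without NCAM-enriched replicate 2, where 592 of all 14384 genes were). With NCAM-enriched replicate 3 alone, chosen after seeing the data, 3 were called lower. The median log2 fold change was -0.96 to -0.47 when 1 library was left out. It was -0.07, against 0.29 over all tested genes, with the length trend removed, also chosen after seeing the data. Over all genes edgeR called 137 higher and 204 lower, DESeq2 1257 and 1094, and limma-voom 351 and 849. With every gene of at least 1 count, edgeR called 769 and 741.

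Deviations of libraries with the same replicate number correlated at 0.0226, 0.00025 and -0.00436, so no sign of pairing by number was seen. With libraries this variable, such values cannot exclude shared animals or preparation. With the replicate block 0 genes of the list were called in either direction, the median was -0.80 against -0.36 over all genes, a gap of -0.44 in place of -0.68 (-0.37 in limma-voom), and over all genes 50 were called higher and 92 lower.

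Of 576 results for 32 named genes, 17 changed sign, 5 fell short of the threshold and 32 passed it. Without the length trend the log2 fold change was 0.61 for Rpl4, 0.01 for Rplp1, 0.59 for Rplp2, 0.56 for Fau, 0.24 for Rplp0, 0.43 for Rpl39l and 0.70 for Rpl37rt. All tested genes had a median of 0.29 in that fit, so Rplp1 and Rplp0 still lay below the typical gene. With NCAM-enriched replicate 3 alone it was 0.17 for Rpl4, 0.15 for Rplp2 and 0.34 for Fau. When 1 library was left out, Rps3 ranged from -0.10 to 0.33 (-0.01 without bulk skin replicate 2), Rpl4 from -0.46 to 0.01, Rplp2 from -0.35 to 0.15 (0.06 without NCAM-enriched replicate 2), Fau from -0.82 to 0.00 and Rpl37rt from -0.73 to 0.10. The cause of these changes was not tested. Genes with few counts or few unique windows limit what single levels can show.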

Other observations

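Olfactory, vomeronasal and taste receptor genes, 1777 rows, summed to 751, 379 and 200 counts (399, 293 and 56.8 CPM) in the NCAM-enriched libraries. In bulk skin they summed to 81, 136 and 155 counts (25.1, 29.4 and 42.5 CPM). A count was found in 158, 82 and 97 of these rows against 21, 32 and 38. All 3 NCAM-enriched libraries lay above the bulk skin libraries, replicates 1 and 2 by most, which are also the libraries with the high pseudogene shares.

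Over the 85 tested ribosomal protein genes, Pearson's r of log2 CPM between libraries was 0.849 to 0.978, against 0.499 to 0.882 over all tested genes. These values are across genes, which are not independent replicates. NCAM-enriched replicate 2 had the lowest r with every other library, 0.849 to 0.86.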
